A study of Mus musculus with 4 samples.

Results

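The genes described here encode proteins that a mouse sperm carries for binding and fusing with the egg, together with their closest relatives: Izumo1, Izumo2, Izumo3, Izumo4, Spaca6, Tmem95, Dcst1 and Dcst2. They were chosen by gene symbol, and all 8 were found among the 28692 genes of the deposited count matrix. The matrix came from droplet-based single-cell RNA sequencing of testes of C57BL/6 mice at postnatal day 63. Per the labels, the 4 samples were 2 of Phf7 tKO, written as Stra8-Cre:Phf7 f/f, and 2 of Phf7 f/f. All 4 thus carry the floxed Phf7 alleles, and in Phf7 tKO the Stra8 promoter, which is active in germ cells as they approach meiosis, drives Cre. Nothing in the labels tells if each sample was 1 animal, and they name 2 sequencing instruments.

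The barcodes fall into 4 sets by a suffix from 1 to 4, and no label ties a suffix to a sample or genotype. The genotypes were therefore not compared, and the pooled matrix was treated as 1 sample, without a test between groups. Values are given for the pool and for each suffix, with 95% intervals that cover counting error only. The 4 suffixes held between 7539 and 8562 barcodes and between 44447735 and 50353091 unique molecular identifiers (UMI, each standing for 1 captured transcript). Between 68 and 104 barcode sequences were shared by any pair of suffixes. Phf7 itself lay between 74.0 and 794 CPM (a gene's UMI scaled to a common total) across the suffixes in round spermatid-like cells, and this was not used to assign a genotype.

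Germ cells pass from spermatogonia through meiosis as spermatocytes to round spermatids, which build the acrosome, a vesicle that caps the nucleus, and then elongate while transition proteins and protamines replace the histones. Sperm-egg fusion follows the release of the acrosome's content, which exposes membrane proteins that the spermatid laid down there. IZUMO1 is the protein on the sperm that binds JUNO, the product of Izumo1r, on the egg. SPACA6, TMEM95, DCST1 and DCST2 are each needed in mouse sperm for fusion after binding, and loss of DCST1 or DCST2 also lowers SPACA6 on sperm. IZUMO2, IZUMO3 and IZUMO4 share the Izumo domain. IZUMO3 is needed for a normal acrosome in the mouse, IZUMO4 has no membrane anchor, and the role of IZUMO2 is not settled.

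The 4 fusion genes that shared a profile in these cells, Izumo1, Spaca6, Dcst1 and Dcst2, are shown by the sequence around their starts, since their transcripts moved together. Each RefSeq window runs from 250 bases before the start to 50 bases after it on GRCm38.p6, and 7 of the 8 genes matched a window, Izumo4 being the one without. Capitals mark the matches found in these 4 windows: in Izumo1 the cyclic AMP response element TGACGTCA, the site that CREM, an activator of spermatid genes, recognises, and in Spaca6 the site GTTGCC, part of the RFX factors' motif, read on the minus strand.
Izumo1, chr7:45621561-45621860, plus strand: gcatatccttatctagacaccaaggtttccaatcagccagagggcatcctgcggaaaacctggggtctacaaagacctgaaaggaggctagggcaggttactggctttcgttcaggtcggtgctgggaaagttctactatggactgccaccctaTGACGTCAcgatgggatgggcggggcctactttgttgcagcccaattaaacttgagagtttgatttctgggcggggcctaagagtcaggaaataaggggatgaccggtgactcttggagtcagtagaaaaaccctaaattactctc
Spaca6, chr17:17830725-17831024, plus strand: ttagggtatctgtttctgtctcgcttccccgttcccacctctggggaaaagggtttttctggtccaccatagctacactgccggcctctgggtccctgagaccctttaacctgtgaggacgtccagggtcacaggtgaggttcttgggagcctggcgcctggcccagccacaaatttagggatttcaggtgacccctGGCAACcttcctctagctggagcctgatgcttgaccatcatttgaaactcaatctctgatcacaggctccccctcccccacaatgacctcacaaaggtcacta
Dcst1, chr3:89365204-89365503, minus strand: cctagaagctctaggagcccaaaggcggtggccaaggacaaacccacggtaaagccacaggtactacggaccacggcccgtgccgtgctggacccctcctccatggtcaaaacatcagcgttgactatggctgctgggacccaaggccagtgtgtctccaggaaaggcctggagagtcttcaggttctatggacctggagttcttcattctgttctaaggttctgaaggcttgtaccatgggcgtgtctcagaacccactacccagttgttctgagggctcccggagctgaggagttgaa
Dcst2, chr3:89365069-89365368, plus strand: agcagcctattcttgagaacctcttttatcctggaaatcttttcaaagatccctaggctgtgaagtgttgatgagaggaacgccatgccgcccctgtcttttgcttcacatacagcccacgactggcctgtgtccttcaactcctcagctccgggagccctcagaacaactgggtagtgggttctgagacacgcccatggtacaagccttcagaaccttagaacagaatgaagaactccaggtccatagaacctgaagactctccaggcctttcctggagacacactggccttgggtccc

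The search covered both strands for TGACGTCA, for the shorter site TGACG, which lies inside it, for GTTGCC and for TATAAA. The full element of Izumo1 begins at position -96 from the start, and 1.88% of 27018 windows of this length held TGACGTCA. The match of Spaca6 begins at -53, and 12.7% of windows held GTTGCC. Tmem95 held TGACG at -208, a motif present in 21% of windows. None of these letters was found in the windows of Izumo2, Izumo3, Dcst1 or Dcst2, and TATAAA, held by 14.2% of all windows, was found in none of the 7. A match describes these letters only.

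The starts of Dcst1 and Dcst2 lie 66 bases apart on opposite strands, so that their windows share 165 bases, chr3:89365204-89365368. In the GENCODE M21 annotation of GRCm38, Dcst1 spans chr3:89350219-89365253 on the minus strand and Dcst2 chr3:89361975-89377549 on the plus strand. The genes overlap over 3279 bases. The sources used here do not state whether the authors' counting used strand, and the 3′ ends that these libraries capture lie on the far sides of both genes.

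Izumo1 (ENSMUSG00000064158) spans chr7:45621811-45628823 on the plus strand and shares 1336 bases with Rasip1, which follows it on the same strand and had 3.27 CPM in round spermatid-like cells. Izumo2 (ENSMUSG00000066500) lies on the same chromosome at chr7:44708742-44719844, plus strand. Izumo3 (ENSMUSG00000028533) spans chr4:92144329-92147234 on the minus strand, and Izumo4 (ENSMUSG00000055862) chr10:80702184-80705373 on the plus strand. Spaca6 (ENSMUSG00000080316) spans chr17:17827158-17843009 on the plus strand with the microRNA genes Mir99b, Mirlet7e and Mir125a inside it. Its RefSeq window lies within this span, downstream of the annotated gene start, and contains Mir125a. Whether the Spaca6 transcripts of these cells start there was not tested. Tmem95 (ENSMUSG00000094845) spans chr11:69876684-69878018 on the minus strand. The identifiers of Dcst1 and Dcst2 are ENSMUSG00000042672 and ENSMUSG00000109293. All 8 are annotated as protein-coding.

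Cells were grouped without the 8 genes and named from marker genes, and the names are given as "like" because they rest on markers alone. The germ cell classes were 733 spermatogonia-like, 1087 early and 1266 late spermatocyte-like, and 5644 round and 9414 elongating spermatid-like cells, of 29967 cells kept. Another 7102 cells, 23.7%, stayed unnamed. Their share was 27.3%, 24.1%, 20.5% and 22.9% in suffixes 1 to 4. Doublets must be assumed to remain, since the caller marked 1 of 29968 cells. Levels are UMI summed over a class, as CPM of that class. Since reads mark 3′ ends with a gene-specific efficiency, each gene is compared with itself across classes and not with the other genes.

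Round spermatid-like and elongating spermatid-like cells together held most of the transcripts of 6 genes. Their part of all UMI in the kept cells was 91.1% for Izumo1, 90.2% for Spaca6, 92.5% for Dcst1, 90.6% for Dcst2, 90.3% for Izumo2 and 84.8% for Izumo3. Izumo4 stood apart with 42.9%. Tmem95 was hardly captured, with 15 UMI among all barcodes against 7148 to 87358 UMI for the other 7 genes. By class of highest CPM, Izumo4 led in late spermatocyte-like cells. Izumo1, Spaca6, Dcst1, Dcst2 and Izumo3 followed in round spermatid-like cells, with Izumo3 at 60.2% of that level in elongating spermatid-like cells. Izumo2 was highest in elongating spermatid-like cells, but was already at 75.8% of that level in round spermatid-like cells.

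**Figure D1:**
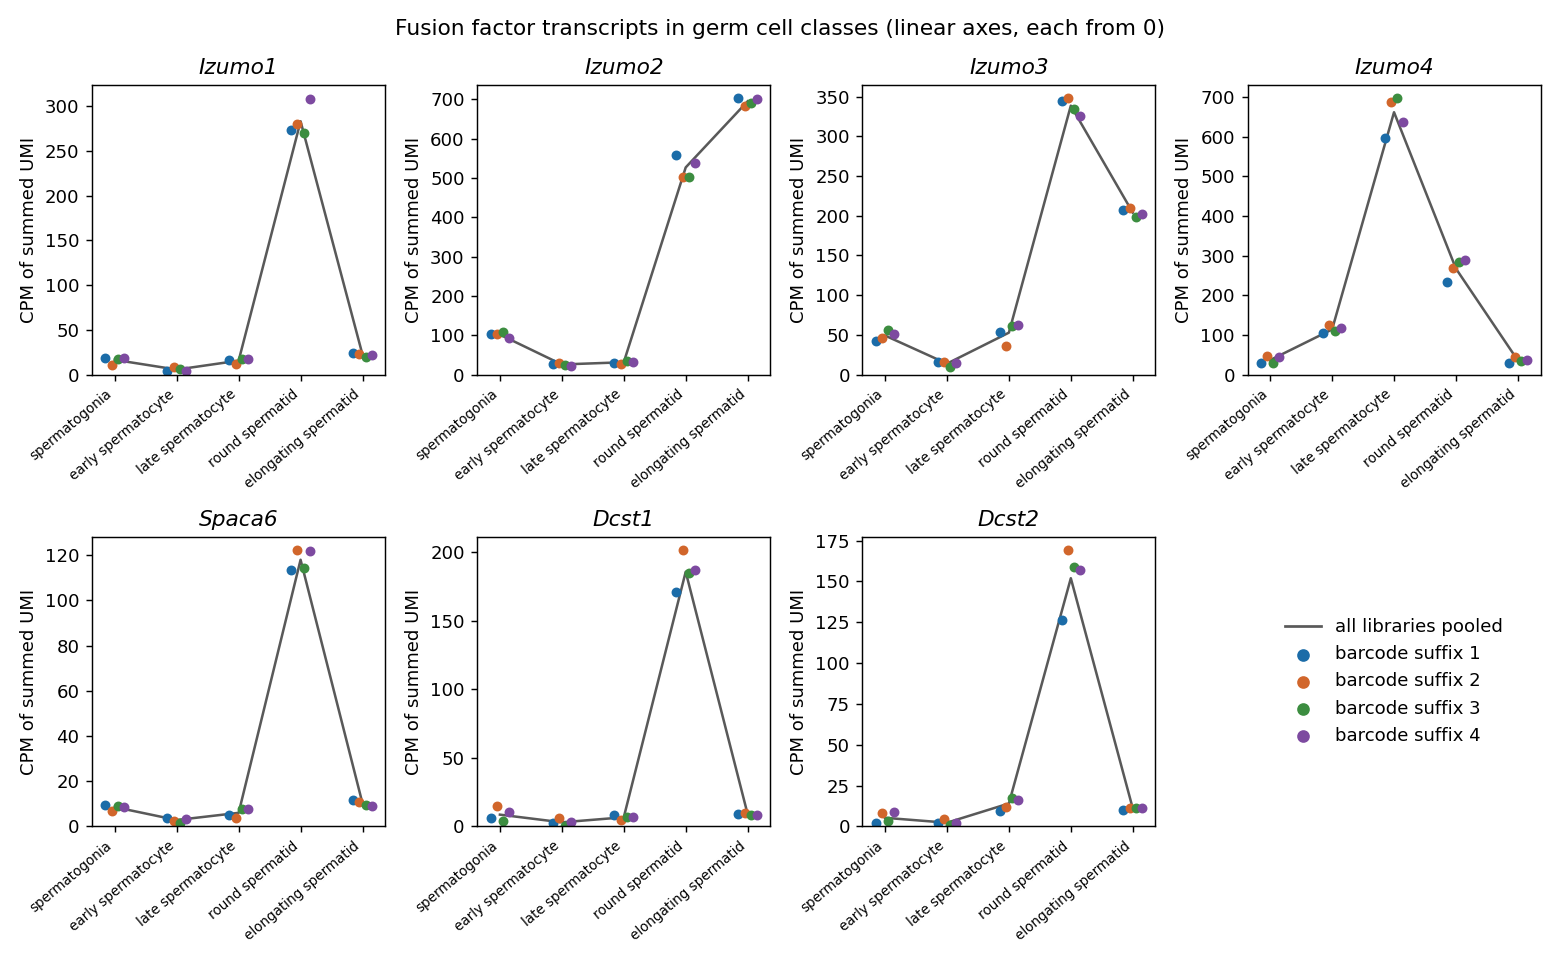
Levels of 7 fusion factor genes in CPM (linear axes from 0, a different scale in each panel) in the 5 germ cell classes in developmental order. The line joins the pooled values and each point is 1 barcode suffix; the 4 suffixes of a class lie close together beside the steps between classes, as for Izumo1 at 271 to 309 CPM in round spermatid-like cells and 11.7 to 17.4 CPM in late spermatocyte-like cells.

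The level in the somatic classes was taken as the one below which a value was not read as expression. Whether free RNA in the droplets gave rise to it was not tested. Izumo1 had 0.0584, 0.0497 and 0.0797 UMI per cell in Sertoli-like, Leydig-like and macrophage-like cells, against 0.0819 in spermatogonia-like cells and 0.0810 in those of early spermatocyte type. The germ cells before late meiosis thus lay at about the somatic level. For Izumo2 the spermatogonia-like and early spermatocyte-like cells had 0.505 and 0.374 UMI per cell, and the 3 somatic classes 0.339 to 0.527. For Dcst2 they had 0.0259 and 0.0322, and the somatic classes 0.0248 to 0.0330. In CPM the Sertoli-like cells, with a median of 925 UMI, stood above both early germ cell classes for all 7 genes with more than a few UMI, for example at 53.7 CPM of Izumo1, against 9.96 CPM in Leydig-like cells at a median of 5624 UMI. The counts in these early and somatic cells were read as background. Izumo4 in early spermatocyte-like cells was above the somatic classes per cell but not in the share at equal depth, and was not placed.

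**Figure D2:**
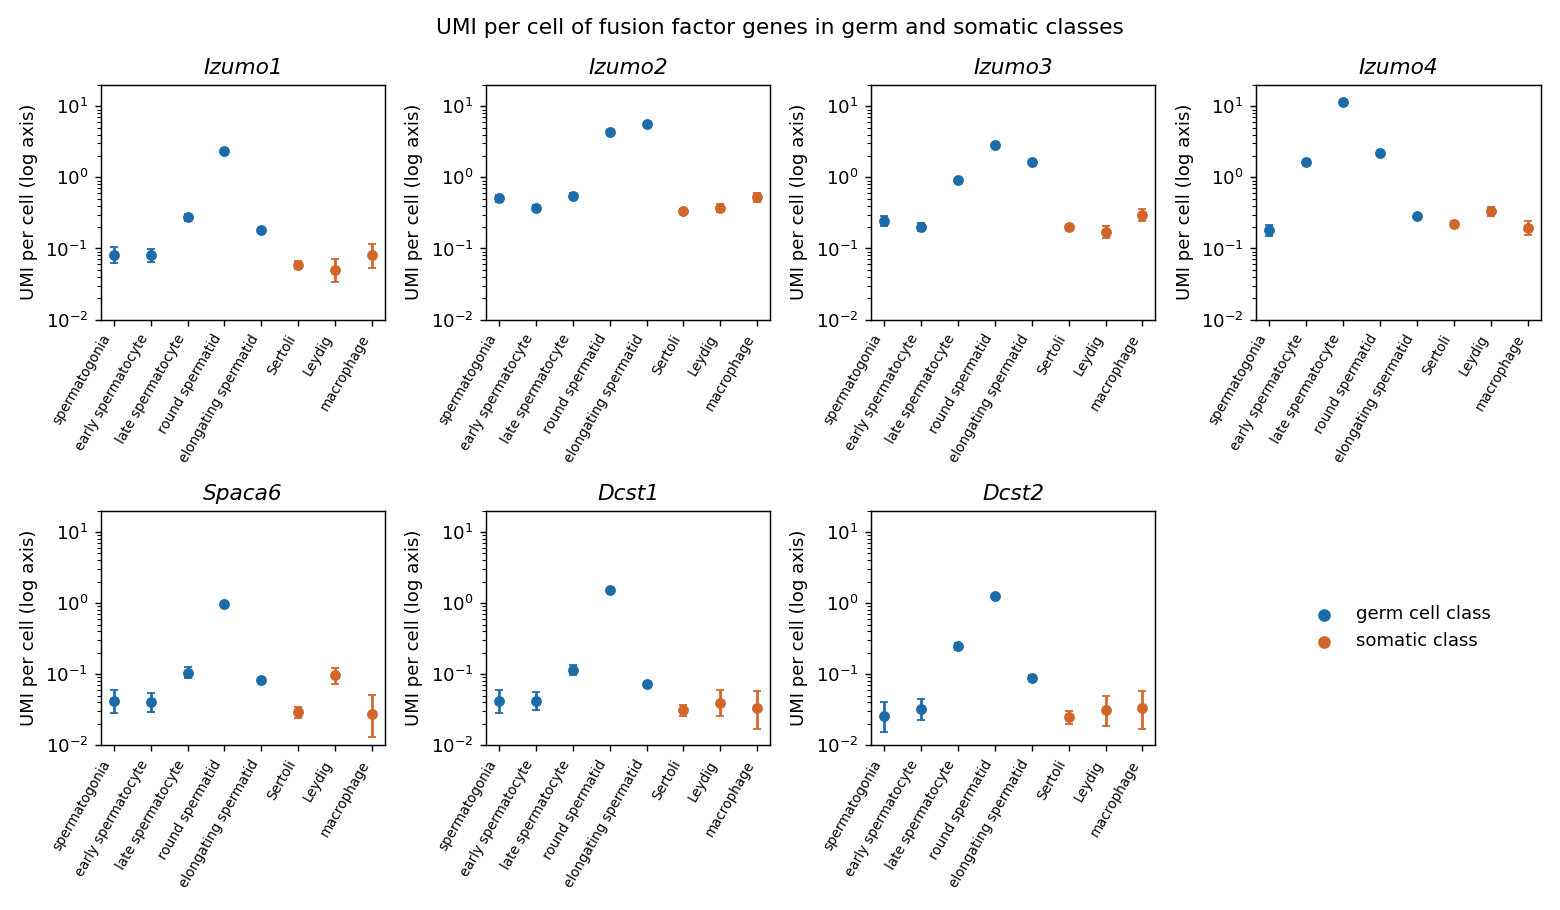
UMI per cell (log axis) of 7 fusion factor genes in 5 germ cell classes in developmental order (blue) and 3 somatic classes (orange), pooled over suffixes, with 95% Poisson intervals that cover counting error only. Spermatogonia-like cells lie near the somatic classes for each gene, and round spermatid-like cells lie above them, at 2.36 UMI per cell for Izumo1 against 0.0797 or less in somatic cells.

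Izumo1, which binds the egg, was a round spermatid gene here. Round spermatid-like cells had 274, 280, 271 and 309 CPM in suffixes 1 to 4, and late spermatocyte-like cells 16.7, 11.7, 17 and 17.4 CPM. The ranges were far apart, and the pooled log2 ratio of round spermatid-like over late spermatocyte-like cells was 4.19 (95% interval 4.03 to 4.35). Elongating spermatid-like cells had 24.6, 23.0, 19.9 and 21.7 CPM, at a log2 ratio of -3.68 (-3.75 to -3.60) over round spermatid-like cells. The transcript was thus high in 1 class and low in the classes on either side, with 0.274 UMI per cell before it and 0.181 after it. Cells with at least 1000 UMI were thinned to 1000 UMI. Of these, 31.4% of round spermatid-like cells held an Izumo1 UMI, against 4.99% of Sertoli-like and 1.78% of Leydig-like cells. All thinned shares leave out the shallower cells, which were 2311 of 3753 Sertoli-like, 155 of 604 Leydig-like and 214 of 5644 round spermatid-like cells. Without thinning the shares were 66.0% at a median of 3240 UMI, 5.68% at 925 UMI and 4.80% at 5624 UMI.

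Spaca6, a partner of IZUMO1 in the fusion complex, followed the same course. Round spermatid-like cells had 114, 122, 114 and 122 CPM, and late spermatocyte-like cells 4.97, 3.49, 7.44 and 7.78 CPM. The log2 ratio was 4.31 (4.06 to 4.57). Elongating spermatid-like cells fell to 11.5, 10.6, 9.53 and 9.12 CPM, a log2 ratio of -3.54 (-3.65 to -3.44) over round spermatid-like cells. No suffix of one class reached the range of the round spermatid-like cells. The levels in elongating spermatid-like, spermatogonia-like, late and early spermatocyte-like cells overlapped from each class to the next in the order of level.

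Dcst1 and Dcst2, transmembrane proteins that act together in fusion, were also highest in round spermatid-like cells. Dcst1 had 171, 201, 185 and 187 CPM in round spermatid-like cells and 8.45, 4.44, 7.14 and 7.04 CPM in late spermatocyte-like cells, a log2 ratio of 4.82 (4.58 to 5.06). Dcst2 had 127, 169, 159 and 157 CPM in round spermatid-like cells and 9.20, 11.7, 17.5 and 15.9 CPM in late spermatocyte-like cells, a log2 ratio of 3.44 (3.28 to 3.61). Suffix 1 was the lowest of the 4 for both genes in round spermatid-like cells. In elongating spermatid-like cells Dcst1 was at 8.88 CPM and Dcst2 at 10.99 CPM in the pool, with log2 ratios over round spermatid-like cells of -4.39 (-4.50 to -4.27) and -3.79 (-3.89 to -3.69). The thinned share of round spermatid-like cells with a UMI was 23.7% for Dcst1 and 19.1% for Dcst2, against 2.84% and 2.57% of Sertoli-like cells.

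Tmem95, which encodes a sperm membrane protein needed for fusion, could not be placed. Of its UMI, 9 were in round spermatid-like cells (3, 1, 2 and 3 in suffixes 1 to 4), 2 in elongating spermatid-like cells, 1 in late spermatocyte-like and 1 in spermatogonia-like cells, the other two lying in unnamed cells and in barcodes that were not kept. Early spermatocyte-like, Sertoli-like, Leydig-like and macrophage-like cells had 0. In early spermatocyte-like cells the limit of 3 counts set for 0 UMI is 0.189 CPM, and the 95% counting interval reaches 0.233 CPM. The log2 ratio of round spermatid-like over late spermatocyte-like cells was 2.09 with a counting interval of -0.76 to 7.55, and that of elongating over round spermatid-like cells -2.88 (-6.13 to -0.60). Tmem95 had too few UMI to be tested by the rule for calls.

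Izumo2 was the one gene whose level was highest in the last class. Elongating spermatid-like cells had 702, 683, 690 and 701 CPM, round spermatid-like cells 559, 502, 502 and 537 CPM. All suffixes of the later class were above all of the earlier one, but the log2 ratio of 0.40 (0.38 to 0.42) was under the 2-fold limit for a call. Per cell, elongating spermatid-like cells held 5.66 and round spermatid-like cells 4.39 UMI. In late spermatocyte-like cells the level was 26.2 to 35.5 CPM and 0.552 UMI per cell, with the somatic range reaching 0.527. The step into round spermatid-like cells, at 4.07 (3.96 to 4.18), thus started from about the somatic level. The thinned share of cells with an Izumo2 UMI was 38.6% of elongating, 35.5% of round spermatid-like and 24.9% of Sertoli-like cells, the last being the background at which this abundant transcript must be read.

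Izumo3, tied to acrosome formation, was within 2-fold between the 2 spermatid classes in CPM. Round spermatid-like cells had 345, 348, 335 and 326 CPM, against 54.2, 35.5, 60.7 and 62.3 CPM in late spermatocyte-like cells, a log2 ratio of 2.68 (2.60 to 2.77). Elongating spermatid-like cells had 207, 210, 199 and 203 CPM, at -0.73 (-0.76 to -0.70) over round spermatid-like cells. The ranges of the spermatid classes did not overlap, and the difference was under 2-fold. The thinned share of cells with an Izumo3 UMI was 25.7% of round and 14.7% of elongating spermatid-like cells. Sertoli-like, Leydig-like and macrophage-like cells were at 16.1%, 5.12% and 6.62%. The elongating class as a whole was thus at about the Sertoli-like background, which stood at 184 CPM. Late spermatocyte-like cells held 0.930 Izumo3 UMI per cell, above the 0.171 to 0.299 of the somatic classes, but at greater depth. In CPM they were at 52.8, below Sertoli-like and macrophage-like cells at 184 and 110 and above Leydig-like cells at 34.2. Their thinned share was 8.32%, below that of Sertoli-like cells. The class was made of 433 cells of a cluster with a median of 27545 UMI and 833 cells of one with 3801 UMI, which had 1.94 and 0.407 UMI per cell.

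Izumo4 was the early gene of the family. Late spermatocyte-like cells had 595, 688, 697 and 636 CPM, against 105, 124, 109 and 118 CPM in early spermatocyte-like cells, a log2 ratio of 2.54 (2.47 to 2.61). Early spermatocyte-like cells held 1.66 UMI per cell, above the 0.195 to 0.334 of the somatic classes, but at a mean of 14566 UMI. The somatic classes had means of 1087 to 4985 UMI. The thinned share of early spermatocyte-like cells was 8.03%, within the somatic range of 7.26% to 19.9%. In CPM they were below Sertoli-like cells at 206 and above Leydig-like and macrophage-like cells at 67.1 and 71.5. They were higher than spermatogonia-like cells at 28.1 to 46.3 CPM by a log2 ratio of 1.64 (1.38 to 1.90). Round spermatid-like cells fell to 233, 270, 284 and 288 CPM, a log2 ratio of -1.31 (-1.34 to -1.27) over late spermatocyte-like cells. Elongating spermatid-like cells had 28.2 to 44.3 CPM and 0.289 UMI per cell, within the somatic range, at -2.91 (-2.98 to -2.85) over round spermatid-like cells. The thinned share of late spermatocyte-like cells with an Izumo4 UMI was 53.3%, against 19.9% of Sertoli-like and 10.7% of Leydig-like cells. The fall into round spermatid-like cells was under 2-fold in 5 other clusterings or filters, at log2 ratios between -0.79 and -0.52, and just under 2-fold relative to the median gene, with the direction unchanged in these 6.

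Calls were made among genes with at least 50 UMI over both classes. A call of higher or lower needed a pooled difference of at least 2-fold between the later and the earlier class, and the same sign in each suffix. In round spermatid-like over late spermatocyte-like cells 6 of the 7 genes tested were called higher (all but Izumo4), where 34.1% of 13422 genes were, and 1 lower, where 32.3% were. Their median log2 ratio was 4.07, and that of all tested genes -0.31. In elongating over round spermatid-like cells 5 of 7 were called lower, where 67.3% of 13516 genes were, and 0 higher, where 5.69% were, so that the count lower is close to the background. Here the median gene was itself at -1.75 and that of the 7 at -3.54. Of all genes tested, 769 were called higher and 9090 lower, and 3668 and 2994 relative to the median gene. Relative to the median gene, Izumo1 was at -1.92, Spaca6 at -1.79, Dcst1 at -2.63, Dcst2 at -2.04 and Izumo4 at -1.16, while Izumo2 was at 2.15 and Izumo3, which turned its sign, at 1.02.

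The sizes of these steps varied more than the counting intervals show. Each suffix held all 5 germ cell classes, and within suffixes the log2 ratio of round spermatid-like over late spermatocyte-like cells was 3.99 to 4.58 for Izumo1, 3.94 to 5.13 for Spaca6, 4.34 to 5.50 for Dcst1, 3.18 to 3.85 for Dcst2, 3.82 to 4.26 for Izumo2 and 2.39 to 3.29 for Izumo3. Over all other clusterings, filters and scalings tried, the ratio was 2.83 to 5.51 for Izumo1, 3.11 to 5.27 for Spaca6, 3.09 to 5.93 for Dcst1, 2.85 to 4.92 for Dcst2, 2.17 to 4.38 for Izumo2 and 1.75 to 3.81 for Izumo3, so that the 6 genes kept their direction but not their fold. For elongating over round spermatid-like cells the within-suffix ratios were -3.83 to -3.48 for Izumo1, -3.74 to -3.30 for Spaca6 and -3.08 to -2.60 for Izumo4. Apart from the scaling to the median gene, Izumo4 alone moved by over 1.5 times there, to -3.67 with a finer clustering and -3.60 with the highest 6% of doublet scores removed.

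In spermatogonia-like and early spermatocyte-like cells the UMI per cell lay near the somatic level for all but Izumo4. The thinned share of early spermatocyte-like cells with an Izumo4 UMI also lay within the somatic range. In UMI per cell, late spermatocyte-like cells were above the somatic classes also for Izumo1, at 0.274 against 0.0797 or less, as for Izumo3. The same held for Dcst2, at 0.246 against 0.0330 or less, and for Dcst1, at 0.116 against 0.0397 or less. At equal depth this excess was not seen. The thinned shares of late spermatocyte-like cells were 2.30% for Izumo1, 2.61% for Dcst2 and 1.35% for Dcst1. Sertoli-like cells were at 4.99%, 2.57% and 2.84%. In CPM the late spermatocyte-like cells were below Sertoli-like cells for all 3 genes. The values per cell rest largely on the deep cluster of 433 cells. It held 0.587 Izumo1, 0.473 Dcst2 and 0.236 Dcst1 UMI per cell, against 0.112, 0.128 and 0.0540 in the cluster of 833 cells. In late over early spermatocyte-like cells 5 of 7 were called higher (20.8% of 11540 genes) and 0 lower (24.2%), with Izumo4 at 2.54, Dcst2 at 2.66, Izumo3 at 1.94, Izumo1 at 1.48 and Spaca6 at 1.10. Dcst1 stood at 1.18 with suffix 2 at -0.46, and Izumo2 at 0.29. With at least 1000 genes per cell, with up to 20% mitochondrial UMI and at the finer clustering (resolution 2), 1 of the 7 was called higher in place of 5, and Izumo4 was the one gene over 2-fold higher. Directions turned for Izumo2 in each of these 3 (-0.76, -0.85 and -0.99), with up to 20% mitochondrial UMI also for Izumo1 (-0.14), Izumo3 (-0.071), Spaca6 (-0.79), Dcst1 (-0.85) and Dcst2 (-0.17), and at resolution 2 also for Izumo1 (-0.76), Izumo3 (-0.36), Spaca6 (-1.21) and Dcst1 (-0.89). In early spermatocyte-like over spermatogonia-like cells 1 of 7 was called higher, Izumo4 (21.6% of 11105 genes), and 6 lower (39.3%), at log2 ratios between -1.99 and -1.24. In UMI per cell, Izumo2 had 0.374 (0.338 to 0.412) in early spermatocyte-like and 0.505 (0.455 to 0.559) in spermatogonia-like cells, and the intervals of the other 5 genes overlapped between the classes. The 6 calls of lower were lost when more genes per cell were required, when more mitochondrial UMI were admitted, with a finer clustering, and as a mean over cells. The call of Izumo4 in this comparison was lost with more mitochondrial UMI admitted, at 0.81, and as a mean over cells, at 0.65, without a change of direction. With the highest 6% of doublet scores removed, Izumo4 was at 2.97 here and at 1.68 in late over early spermatocyte-like cells. Without suffix 4, Dcst2 was at -0.84 here, and without suffix 3, Spaca6 was at 0.71 in late over early spermatocyte-like cells, both under 2-fold.

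Within the classes, 16 germ cell clusters gave a finer order. Round spermatid-like cells made 5 clusters, in which the share of UMI from Tnp1, Tnp2, Prm1 and Prm2 was 0.219% to 8.04%. Izumo1, Spaca6, Dcst1 and Dcst2 all had their highest level in the same cluster of 1110 cells with a share of 0.997%: 656 CPM of Izumo1 (605 to 749 over suffixes), 256 CPM of Spaca6 (233 to 271), 569 CPM of Dcst1 (519 to 594) and 452 CPM of Dcst2 (372 to 505). The ranges of this cluster lay above those of the other 15 clusters for each of the 4 genes.

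Before and after that point the 4 genes differed. In a cluster of 1450 round spermatid-like cells with a share of 0.857%, the one with the most mitochondrial UMI at 2.85%, Dcst2 was at 58.3% of its highest level, Spaca6 at 55.2%, Dcst1 at 43.1% and Izumo1 at 40.1%. In the cluster of 1715 cells at a share of 2.03%, the level of Izumo1 was 284 CPM and that of Spaca6 122 CPM, or 43.3% and 47.6% of their highest, and those of Dcst1 and Dcst2 were 23.6% and 22.8%. Per cell these last 1715 cells held 2.87 Izumo1 and 1.23 Spaca6 UMI, against 2.70 and 1.05 in the cluster with the highest CPM. For Dcst1 they held 1.36 against 2.35 and for Dcst2 1.04 against 1.86. These clusters differ in depth. The 1715 cells had a mean of 10087 UMI at a median of 2181, with 19.9% of them over 20000 UMI and holding 78.4% of the cluster's UMI, so that their sums rest largely on a minority of deep cells. The cluster with the highest CPM had a mean of 4121 UMI at a median of 3317.5, with 0.811% of cells over 20000 UMI.

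**Figure D3:**
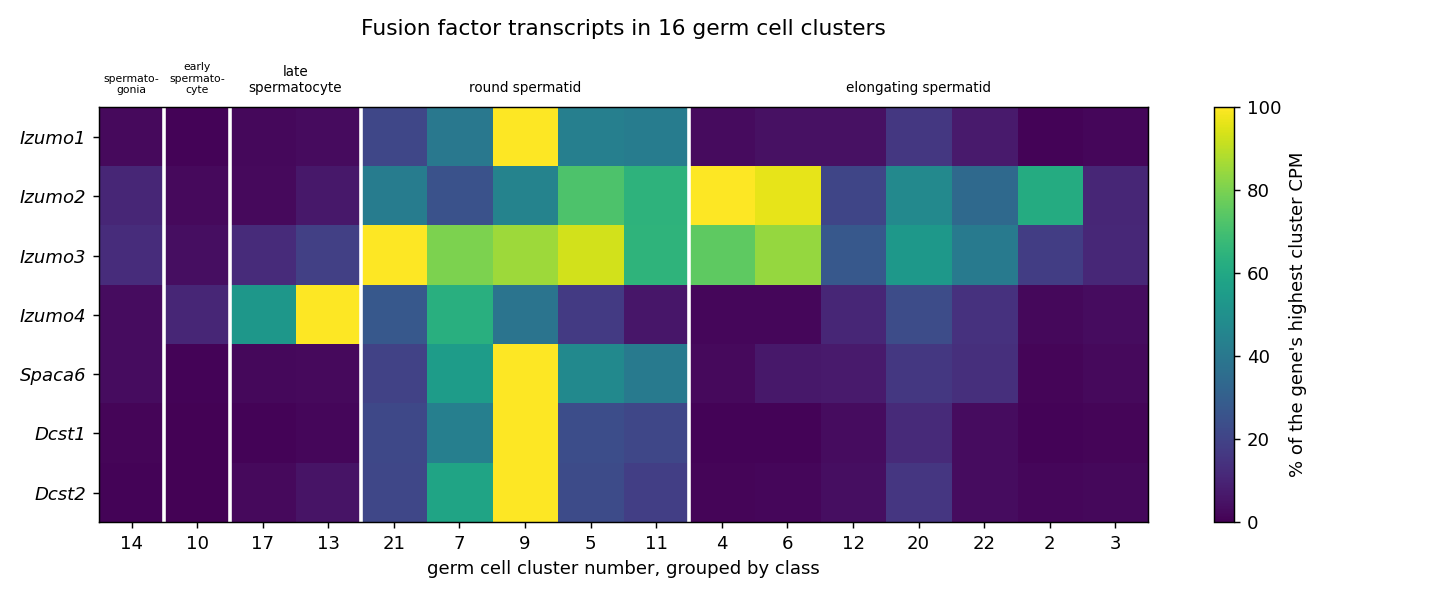
Level of 7 fusion factor genes (rows) in 16 germ cell clusters (columns, by number), each as percent of that gene's highest cluster level in CPM, pooled over suffixes. Round spermatid-like clusters run from left to right by rising share of protamine and transition protein UMI and elongating ones by falling Tnp1 share of Tnp1 and Prm2 UMI; Izumo1, Spaca6, Dcst1 and Dcst2 peak in cluster 9, Izumo4 in cluster 13, Izumo3 in cluster 21 and Izumo2 in cluster 4.

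Izumo4 was highest in the late spermatocyte-like cluster of 833 cells, at 1058 CPM (883 to 1129), and lower through the round spermatid-like clusters, with 668 CPM in that of the most mitochondrial UMI, 406 CPM in that where Izumo1 peaked, 181 CPM at a protamine share of 2.03% and 62.1 CPM at 8.04%. The deep late spermatocyte-like cluster had 559 CPM. Izumo2 ran the other way, with 238, 425, 686 and 615 CPM in the same 4 round spermatid-like clusters. Izumo3 held 311, 331, 362 and 253 CPM there, a span of less than 1.5-fold. The remaining cluster of 325 cells at a median of 25838 UMI had the highest Izumo3, 388 CPM, with 293 CPM of Izumo4 and 141 CPM of Izumo1.

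Elongating spermatid-like clusters separated the late pair. They were ordered by the part of Tnp1 in the sum of Tnp1 and Prm2 UMI, which falls as transition proteins give way to protamines; this order was chosen after the data were seen. At parts of 27.2%, 25.1%, 5.25% and 0.592%, in clusters of 2031, 1613, 2256 and 2065 cells, Izumo2 was at 950, 914, 585 and 101 CPM. Izumo3 was at 292, 327, 70.4 and 42.6 CPM. Per cell, Izumo2 had 10.6, 10.99, 4.94 and 0.506 UMI and Izumo3 3.25, 3.94, 0.595 and 0.214. In the last cluster both were thus at the somatic levels of up to 0.527 and 0.299 UMI per cell, and Izumo3 was lower already at the part of 5.25%. The suffix ranges of Izumo2 did not overlap between the last 3 of these 4 clusters. The other elongating spermatid-like clusters, of 951, 338 and 160 cells with Tnp1 parts of 13.0%, 12.5% and 8.85%, had 198, 445 and 326 CPM of Izumo2 and did not keep to this order.

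**Figure D4:**
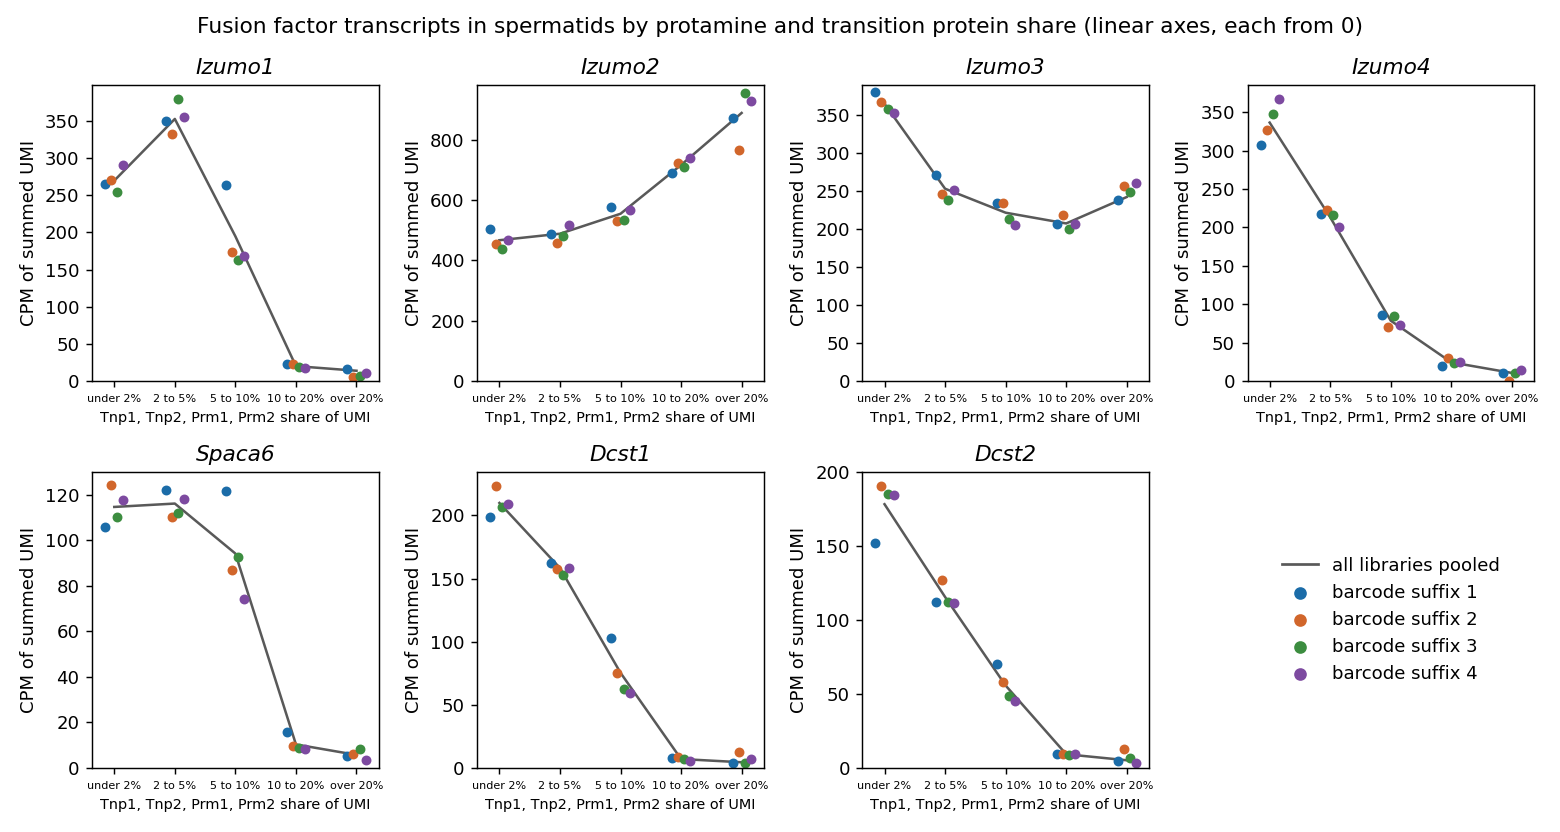
Levels of 7 fusion factor genes in CPM (linear axes from 0) in 15058 spermatid-like cells sorted into 5 ranges of the share of UMI from Tnp1, Tnp2, Prm1 and Prm2. The line is the pool and each point 1 suffix; Izumo1 drops between the ranges of 5 to 10% and 10 to 20%, with 195 and 20.3 CPM, where Izumo2 stands at 555 and 716 CPM.

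Sorting all 15058 round and elongating spermatid-like cells by the share of transition protein and protamine UMI gave an order that did not use the clusters within them. The ranges of under 2%, 2 to 5%, 5 to 10%, 10 to 20% and over 20% held 3829, 2386, 1238, 7142 and 463 cells, and between 408 and 1526 cells lay within 10% of a limit, so these are ranges and not cell types. Izumo4 was at 336, 213, 78.7, 24.5 and 10.7 CPM. Dcst1 was at 210, 158, 75.4, 7.06 and 4.50 CPM and Dcst2 at 178, 116, 55.7, 9.27 and 5.20 CPM. These 3 were lower in each range of larger share in the pool.

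Izumo1 was highest in the second range, at 269, 352, 195, 20.3 and 14.0 CPM, and its suffix ranges in the first pair, 254 to 290 and 331 to 379 CPM, did not overlap. Spaca6 was at 115, 116, 94.1, 10.3 and 5.71 CPM, with overlapping suffix ranges over the first 3. Suffix 1 stood apart at a share of 5 to 10%, with 264 CPM of Izumo1 against 174, 162 and 168 CPM in suffixes 2 to 4, and 121 CPM of Spaca6 against 86.8, 92.6 and 74.1 CPM. Izumo2 was at 467, 488, 555, 716 and 888 CPM and thus higher in each range of larger share. These ranges do not order elongating spermatid-like cells by stage. The clusters of 2031, 1613, 2256 and 2065 cells, ordered above by Tnp1 part, had shares of 18.7%, 14.8%, 15.8% and 13.6%. All of these lie between 10 and 20%, while Izumo2 was at 950, 914, 585 and 101 CPM. Izumo3 was at 365, 253, 222, 208 and 242 CPM. At a share of 5 to 10% Spaca6 still held 81.1% and Izumo1 55.2% of their highest range, against 35.9% for Dcst1, 31.2% for Dcst2 and 23.4% for Izumo4. In CPM, fewer transcripts per cell and a larger total of other transcripts cannot be told apart.

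Over the 16 clusters the profiles of log2(CPM + 10) were compared as a description; the points share the pooled libraries and differ in depth. Izumo1 and Spaca6 had a Pearson correlation of 0.99, Dcst1 and Dcst2 of 0.98, and the pairs between these 2 groups 0.94 to 0.97. Izumo2 had its highest value among the genes with Izumo3, 0.83, and was at -0.40 with Izumo4. Among 10065 genes, those most like Izumo1 were Pla2g10, a secreted phospholipase, Spaca6, and Pdilt, a testis chaperone of the disulfide isomerase family, at 0.99 each. Pla2g10 and Pdilt were also the closest to Spaca6 after Izumo1, at 0.98. Dcst1 was most like Catsper3, a subunit of the sperm calcium channel that also served as a round spermatid marker, 4930474N05Rik and Csrnp3, and Dcst2 most like Zp3r, an acrosome matrix protein, Prr27 and Dcst1, all at 0.98 or above. For Izumo2 they were 4930584F24Rik, Aif1 and Capza3, an actin-capping subunit of sperm, at 0.99. For Izumo3 they were Sqrdl, Gm26662 and 1700012B07Rik, at 0.96 to 0.97, and for Izumo4 1700039E15Rik, Arsa, a lysosomal sulfatase, and Wdr78, at 0.98 to 0.99.

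Other genes tied to fusion were counted as a list of 9, of which 8 were tested in round spermatid-like over late spermatocyte-like cells. Calls of higher went to 6 of them, beside 34.1% of all genes, and of lower to 0, beside 32.3%, around a median log2 ratio of 3.46, against -0.31 over all genes. Cd46, a membrane protein of the inner acrosome, was at 51.7 CPM in round spermatid-like and 0.628 CPM in late spermatocyte-like cells (log2 6.37), Tmem81, which joins the complex of IZUMO1 and SPACA6, at 74.2 and 1.75 CPM (5.41), and Eqtn, the acrosomal equatorin, at 330 and 15.3 CPM (4.43). 1700034O15Rik, the gene of SOF1, a further fusion factor, was at 1022 and 113 CPM (3.18). Crisp2 (-0.17) and Spesp1, an equatorial segment protein (-0.43), were not called. Spesp1 had its highest level in late spermatocyte-like cells, as Izumo4 did.

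In elongating over round spermatid-like cells 5 of 8 were called lower, a share near the 67.3% of all genes, and 2 higher, beside 5.69%. Tmem81 was at 3.58 CPM in elongating and 74.2 CPM in round spermatid-like cells (log2 -4.37), Eqtn at 18.9 and 330 CPM (-4.12), and Cd46 at 3.43 and 51.7 CPM (-3.92). Tssk6, a kinase that sperm need for IZUMO1 to relocate, rose to 2828 CPM in elongating against 471 CPM in round spermatid-like cells (2.59), and Crisp2 to 4646 against 1918 CPM (1.28). 1700034O15Rik was at 941 and 1022 CPM (-0.12), beside Izumo2 and Izumo3 as a gene not called. In late over early spermatocyte-like cells 3 of 7 were called higher (20.8% of all genes) and 0 lower (24.2%), and in early spermatocyte-like over spermatogonia-like cells 1 higher (21.6%) and 4 lower (39.3%).

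Genes of the acrosome and of the passage to and through the egg coat were split between earlier and later starts. Of 20 acrosome genes tested, 10 were called higher and 2 lower in round over late spermatocyte-like cells, beside 34.1% and 32.3% of all genes, with a median of 1.07. Fam71f1 and Spaca4 (3.92 each) and Capza3 (3.73) had the highest ratios, and Gopc, a Golgi protein (-3.41), Zpbp2, which binds the egg coat (-1.17), and Dpy19l2 (-0.90, not called) the lowest. In elongating over round spermatid-like cells 14 of 20 were called lower, a share near the 67.3% of all genes, and 0 higher, beside 5.69%, with Zp3r (-4.48), Spaca3 (-3.88) and Tmem190 (-3.86) the lowest, and Fam71f1 (0.71), Actl9 (0.58) and Capza3 (0.15), none of them called, the highest. In late over early spermatocyte-like cells 11 of 20 were called higher (20.8% of all genes) and 0 lower (24.2%), and in early spermatocyte-like over spermatogonia-like cells 7 higher (21.6%) and 9 lower (39.3%).

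Of the 13 genes listed for migration through the oviduct or binding to the zona, 6 were called higher and 2 lower in round over late spermatocyte-like cells. Of all genes 34.1% and 32.3% were, and the median of -0.20 was near the -0.31 of all genes. The highest were Calr3, a testis calreticulin (6.06), Prss37 (5.25) and Pdilt (4.56), and the lowest Tpst2 (-2.69), Tex101 (-1.53) and Adam2 (-0.92, not called). In elongating over round spermatid-like cells 0 of 12 were called higher and 6 lower, beside 5.69% and 67.3% of all genes, with Pdilt (-4.32), Clgn, a chaperone (-3.55), and Adam2 (-3.40) the lowest, and Ace (0.09), Pmis2 (-0.17) and Adam3 (-0.35), none of them called, the highest. In late over early spermatocyte-like cells 4 of 12 were called higher (20.8% of all genes) and 3 lower (24.2%), and in early spermatocyte-like over spermatogonia-like cells 5 higher (21.6%) and 5 lower (39.3%). Of the egg-side partners, Izumo1r had 0 UMI in every germ cell class after spermatogonia-like cells. The limit of 3 counts set for 0 UMI is 0.0638 CPM in round spermatid-like cells. Cd9, which many cell types express, was called higher at 7.57 CPM in round spermatid-like against 0.314 CPM in late spermatocyte-like cells, and lower in elongating spermatid-like cells at 0.690 CPM. It had 0.0631 UMI per cell in round spermatid-like cells, above Sertoli-like and Leydig-like cells at 0.0032 and 0.0149 and below macrophage-like cells at 0.272. Cd81 was also called higher, at 5.84 CPM in round spermatid-like against 2.47 CPM in late spermatocyte-like cells (log2 1.25, 0.82 to 1.69). Per cell it had 0.0487 and 0.0434 UMI there, below the 0.209 of Sertoli-like and 8.50 of Leydig-like cells. These low germ cell counts cannot be told apart from background.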

How the data were processed

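The deposited matrix holds raw UMI counts per gene and cell, made by the authors with Cell Ranger 3.0.2 per the file headers, and with bcl2fastq 2.19.1.403 and mm10 per the submitters' processing notes. The annotation release and any equalising of depth between libraries were not stated in the sources used. Cells were freed from testes and run with a 3′ kit, per the labels' protocols.

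Barcodes with fewer than 500 genes or over 10% mitochondrial UMI were dropped. Scrublet in scanpy 1.11.5 marked 0.00334% of cells and so did not work. The 2000 most variable genes, without the 8 genes, the listed genes and mitochondrial genes, gave 30 principal components, 15 neighbours and, with leidenalg 0.10.2 at resolution 1, 23 clusters. Genes expressed together with the 8 stayed in, so classes and levels are not independent. Names came from the markers of 13 cell types, by a mean z-score of log2(CPM + 1) that had to reach 0.5 and lead by 0.05 with at least 3 markers detected in 5% of cells. They stayed unnamed when under a median of 1000 UMI without an own marker among the 10 leading genes, when germ and somatic scores both passed 0.6, or when another type's markers led. This rule was set after the clusters were seen.

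CPM are the summed UMI of a gene in a class over all UMI of that class. Intervals are exact (Poisson for sums, Clopper-Pearson for shares, conditional binomial for ratios). A class with 0 UMI was set to 3 counts in ratios and limits. PCR was corrected by UMI, and intervals leave out all variation between animals. The planned test between genotypes on summed counts was not run, since no label maps suffixes to samples. The call rule was run on simulated Poisson counts for round spermatid-like over late spermatocyte-like cells only. The simulation had no variation between suffixes beyond counting error, so it cannot tell how the rule behaves under the spread seen here. The genes, the 4 lists (other fusion-related sperm genes, egg-side partners, acrosome genes, zona and oviduct migration genes) and the tests were chosen with earlier results of these data known. Named are the 8 genes, in each list the 3 highest and 3 lowest ratios of the last 2 comparisons, the 3 genes most like each of the 8, and overlapping genes. Of 28692 gene identifiers, 28339 were found in GENCODE M21.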

Additional observations from a re-analysis of the deposited data

Results flagged for a closer look

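Izumo3 was above its level in every germ cell class in cells that the comparisons leave out. An unnamed cluster of 1133 cells, at a median of 1691 UMI, had 540 CPM of Izumo3 (95% counting interval 510 to 571), and 540, 599, 533 and 504 CPM in suffixes 1 to 4. Round spermatid-like cells, the class with the highest level, had 339 CPM. Per cell the unnamed cluster held 1.07 UMI, against 2.82 in round spermatid-like cells. The cluster's best marker score was that for round spermatids, 0.461, under the limit for a name, and its leading genes began with Prss37 and Calr3. Izumo2 was at 441 CPM there, Izumo1 at 67.5 CPM, Izumo4 at 87.9 CPM, Dcst2 at 39.9 CPM, Dcst1 at 32.8 CPM and Spaca6 at 24.9 CPM, each below its highest germ cell class.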

How the results depend on the processing

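In each of the 13 alternatives run for it, 7 of the 7 genes kept the class of highest CPM. No paired analysis was possible because the replicate numbers belong to the genotypes, and no label maps the barcode suffixes to samples, genotypes or replicate numbers; ratios between classes within suffixes are given without a test. For the same reason the alternatives to the genotype test were not run. A coarser clustering (resolution 0.5) and one with the listed genes allowed had no early spermatocyte-like class, so these gave no value for the comparisons with it.

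The comparison of early spermatocyte-like over spermatogonia-like cells depended most on the settings. With at least 1000 genes per cell, 1002 genes were called higher and 1702 lower, against 2396 and 4361; 0 of the 7 genes tested were called lower, against 6, with Izumo2 at 0.19, Dcst1 at 0.38 and Dcst2 at 0.90. With up to 20% mitochondrial UMI the counts were 1051 and 1960, with 0 of the 7 genes called higher (against 1) and 0 lower, and Dcst1 at 0.10 and Dcst2 at 0.58. At resolution 2, 2401 genes and 0 of the 7 were called lower, with Izumo1 at 0.034, Spaca6 at 0.057, Dcst1 at 0.14 and Dcst2 at 0.59. As a mean over cells of CPM, 2434 genes were called lower and 0 of the 7 higher or lower.

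For late over early spermatocyte-like cells, 5 of the 7 genes were called higher and 0 lower. With at least 1000 genes per cell 1 was called higher. With up to 20% mitochondrial UMI 1 was, with Izumo1 at -0.14, Izumo3 at -0.071, Spaca6 at -0.79 and Dcst2 at -0.17. At resolution 2, 1 was called higher and 1 lower, among 1548 genes called higher against 2403, with Izumo1 at -0.76, Izumo3 at -0.36 and Spaca6 at -1.21. As a mean over cells 3 were called higher, with Spaca6 at -0.62.

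For round spermatid-like over late spermatocyte-like cells the count of 6 called higher was 6 in each alternative while the folds moved by over 1.5 times (Izumo2 from 4.07 to 2.17, Dcst1 from 4.82 to 3.09 and Izumo1 from 4.19 to 2.83 at resolution 0.5, and Izumo1 to 5.51 with the listed genes allowed), and the 1 call of lower, of Izumo4, became 0 with at least 1000 genes, with up to 20% mitochondrial UMI, at resolutions 0.5 and 2, with the listed genes allowed, and relative to the median gene. For elongating over round spermatid-like cells, scaling to the median gene gave 2 of the 7 genes called higher against 0, and 3668 genes higher and 2994 lower against 769 and 9090. The causes were not tested. Adding the 2 unnamed clusters that scored as germ cells to their classes, and leaving out clusters with a median over 20000 UMI, were chosen after seeing the data; each gave 7 called higher in late over early spermatocyte-like cells against 5, and the same counts of the 7 genes in the other comparisons. Leaving out each suffix gave 4 to 6 called higher there, and 4 to 5 called lower in early spermatocyte-like over spermatogonia-like cells against 6. Depth limits Tmem95, with 15 UMI, and the classes before late meiosis, whose counts lay near those of somatic cells.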

Other observations

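The barcodes that the filters removed, 2306 in all, held the 7 genes other than Tmem95 at levels between those of round spermatid-like cells and the lowest class, for example 41.0 CPM of Izumo1 and 199 CPM of Izumo2. The largest unnamed cluster, 5014 cells at a median of 978 UMI, had 330 CPM of Izumo4 and 67.8 CPM of Izumo1; it made up 20.9%, 17.1%, 13.6% and 15.4% of the cells of suffixes 1 to 4.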
